A study of Mus musculus with 10 samples.

Results

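Pan-leukocyte surface and signalling genes are broadly those that many white blood cells carry and epithelial cells mostly do not. The set used here is not uniform, since Thy1, Cd2 and Il7r are mainly genes of lymphocytes. The 10 examined here were Ptprc, Ptprcap, Coro1a, Cd52, Cd53, Laptm5, Ptpn22, Cd2, Thy1 and Il7r, out of 22180 genes on the arrays. They were taken by symbol from the array's annotation, and were partly selected on their measured values in these arrays: earlier results showed several higher in Flattop than in Lgr5-high cells, and Cd2 was included as a gene that was not. Their differences between the groups are therefore descriptions and carry no test. Each of the 10 had 1 probe set, and no filter on low values was applied, so none was lost. The values are log2 intensities, on which a difference of 1 is a doubling of the signal.

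The study compared Flattop-expressing crypt cells of the mouse intestine with stem cells that express high levels of Lgr5 and GFP. There were 4 Flattop and 6 Lgr5-high arrays, from mice 3 to 6 months old. The Flattop cells came from FltpT2AiCre mice carrying Gt(ROSA)26mTmG, on a mixed C57BL/6J, CD1 and 129/SvJ background. In this line Cre made from the Flattop gene switches a membrane reporter for good, so descendants of a Flattop-expressing cell keep the label. The 6 Lgr5-high samples were from Lgr5-EGFP-IRES-creERT2 animals on C57BL/6J, where GFP follows the current activity of Lgr5. Group, genotype and strain coincide and cannot be told apart. No source used here gives the sorting gates. Whether each replicate is another animal is also unstated, and a p-value here then measures only array-to-array spread, which may be technical.

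CD45, the product of Ptprc, is a receptor phosphatase of all nucleated blood cells that keeps Src family kinases ready for antigen receptor signals. Other members bind it, dampen the same signals, move the actin cortex, or sit in the membrane as adhesion, tetraspanin or cytokine receptor proteins. In the intestine, leukocytes lie in the lamina propria and, as intraepithelial lymphocytes, between the epithelial cells themselves. Natural intraepithelial T cells are known to carry little CD2, CD5 or CD28.

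Of the 10 genes, 9 had a higher mean in the Flattop arrays, by 0.73 for Ptprcap to 4.91 for Ptprc, and Cd2 was at -0.09. The median difference over the 10 was 1.61, against -0.06 over all genes. In 7 of them every Flattop array lay above every Lgr5-high array. Over all genes 2.01% lay apart in that direction, and since this contrast chose the members nothing is read from their count. The overlapping genes were Coro1a, Cd2 and Thy1. In Lgr5-high arrays the 10 means ran from 3.69 to 5.54, around the median of all values (4.70), and detection calls were not used here, so the size of a difference from such a level is uncertain. Whether leukocytes were among the sorted cells was not tested. In bulk RNA a change in their number and a change in RNA per cell cannot be told apart.

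**Figure D1:**
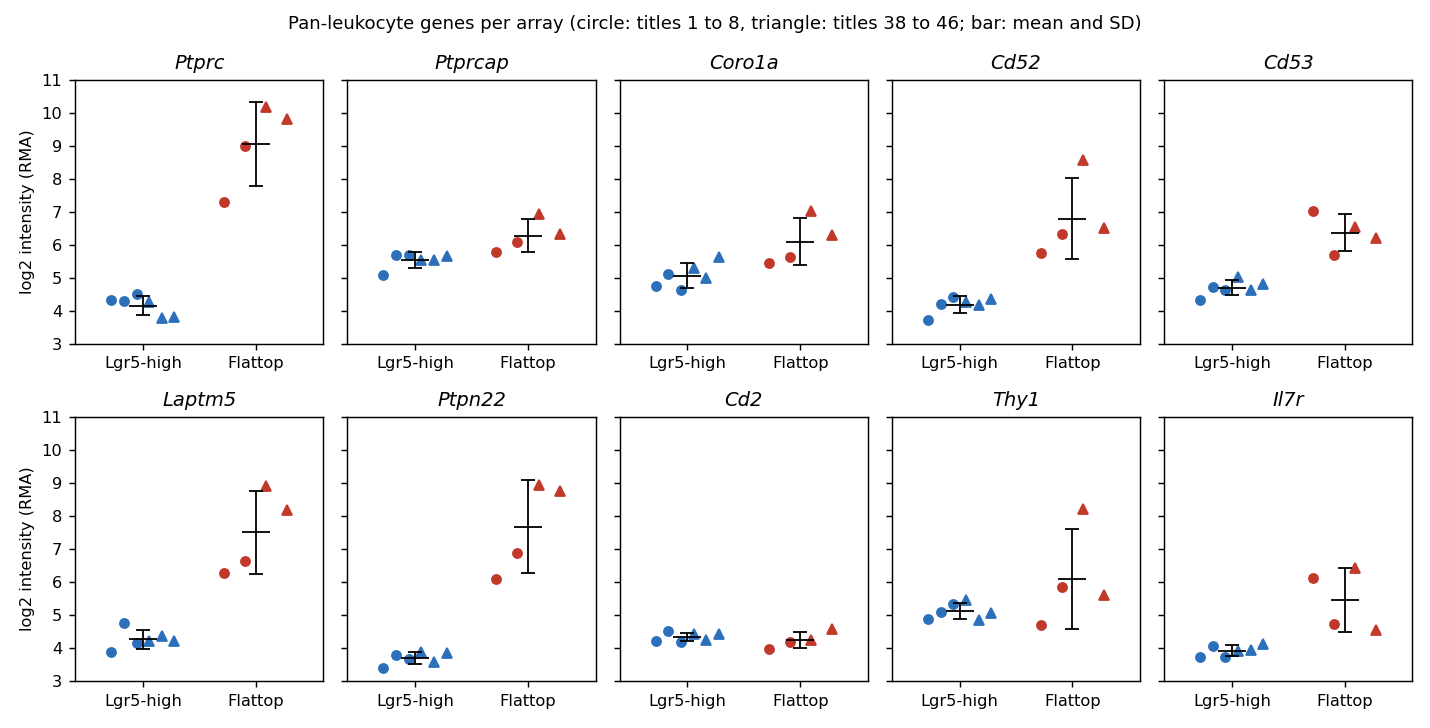
Log2 intensity (vertical axis) of the 10 genes in each of 6 Lgr5-high arrays (blue) and 4 Flattop arrays (red), with circles for title numbers 1 to 8, triangles for 38 to 46, and the mean and SD of each group as bars. Ptprc reads 7.30 or more in every Flattop array and at most 4.50 in any Lgr5-high array, while Cd2 stays between 3.97 and 4.58 in all 10.

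Arrays correlated with each other at 0.825 to 0.941 over all probe sets. Lgr5 read 9.19, 9.65, 6.44 and 8.21 in Flattop replicates 1 to 4 and 8.99 to 9.90 in Lgr5-high arrays, and its difference did not pass (-1.10, SE 0.52, limma adjusted p = 0.533). Cfap126, which encodes Flattop, was at 0.43 (SE 0.31, limma adjusted p = 0.678). The epithelial gene Epcam, named here after its values were seen, lay between 10.69 and 10.99 in every array. Other epithelial genes were less even, and Krt20 differed by 4.48. Flattop replicate 3 was the lowest of the 10 arrays for Krt18 (9.94), Krt19 (8.42), Cdh1 (10.42) and Cdx2 (7.32). That array was not the lowest for the other listed epithelial genes. Flattop replicate 3 had the lowest Lgr5 and, as described below, the highest values of 8 of the 10 genes. Without it the difference of Lgr5 was -0.45 and that of Cfap126 0.17.

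Upstream sequence was at hand for 6 of the 10 genes (RefSeq, GRCm38.p6). The sequences are shown because these genes were higher in the same arrays, and because ETS factors, such as PU.1 and ETS1, are known regulators of leukocyte genes. Each line holds the 150 bases before the most upstream listed transcription start, 5′ to 3′ on the gene's strand, with capitals marking GGAAGT or its reverse complement ACTTCC, the high-affinity form of the ETS core.
Ptprc, chr1:138175306-138175455 (minus strand): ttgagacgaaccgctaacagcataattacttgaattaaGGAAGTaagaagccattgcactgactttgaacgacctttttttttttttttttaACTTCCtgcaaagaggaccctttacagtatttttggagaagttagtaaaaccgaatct
Ptpn22, chr3:103859645-103859794 (plus strand): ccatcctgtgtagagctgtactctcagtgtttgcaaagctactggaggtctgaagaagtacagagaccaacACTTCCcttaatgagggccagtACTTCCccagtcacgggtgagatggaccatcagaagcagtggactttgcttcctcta
Laptm5, chr4:130913166-130913315 (plus strand): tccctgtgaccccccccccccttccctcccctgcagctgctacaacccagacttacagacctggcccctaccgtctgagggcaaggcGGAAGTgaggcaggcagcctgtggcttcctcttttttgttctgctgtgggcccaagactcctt
Il7r, chr15:9529877-9530026 (minus strand): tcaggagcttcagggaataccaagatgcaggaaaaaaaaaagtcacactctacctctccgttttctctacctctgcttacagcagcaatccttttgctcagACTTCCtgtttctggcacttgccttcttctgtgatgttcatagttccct
Cd53, chr3:106790150-106790299 (minus strand): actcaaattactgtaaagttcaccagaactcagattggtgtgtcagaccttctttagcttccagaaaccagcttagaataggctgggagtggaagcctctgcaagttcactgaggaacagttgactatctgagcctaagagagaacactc
Coro1a, chr7:126704817-126704966 (minus strand): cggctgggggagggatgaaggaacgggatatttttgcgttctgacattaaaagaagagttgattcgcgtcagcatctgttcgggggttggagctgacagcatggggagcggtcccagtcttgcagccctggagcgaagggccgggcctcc
The 6 letters stood in 4 of these 6 windows, against 13.6% of 32851 windows of the same length before all listed mouse starts. Ptprc had matches beginning 112 and 58 bases before its start, Ptpn22 79 and 57, Laptm5 63 and Il7r 49. The shorter core GGAA, on either strand and counting those already marked, was in all 6 windows but also in 80.8% of all windows. The RUNX letters TGTGGT or ACCACA were in none of the 6 and in 8.40% of all. These are letter matches, searched after the values were known. The 4 genes with a match had differences of 4.91 (Ptprc), 3.99 (Ptpn22), 3.25 (Laptm5) and 1.54 (Il7r), and the pair without one 1.67 (Cd53) and 1.03 (Coro1a). Il7r with a match thus lay below Cd53 without one. These differences come from the contrast that chose the genes, and a relation between match and difference was not tested.

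The CD45 phosphatase group held the largest differences among the 10 genes. Ptprc (Entrez gene 19264) read 7.30, 8.98, 10.17 and 9.80 in Flattop replicates 1 to 4, and 3.78 to 4.50 with a median of 4.26 in Lgr5-high arrays. The lowest Flattop array thus lay 2.80 above the highest Lgr5-high array. Its mean was 9.06 ± 1.27 (SD, n = 4) against 4.15 ± 0.30 (SD, n = 6), a difference of 4.91. Ptpn22 (Entrez gene 19260), a cytosolic phosphatase that works with the kinase Csk to dampen T cell receptor signals, read 6.10, 6.88, 8.96 and 8.76 in Flattop and 3.38 to 3.88 with a median of 3.72 in Lgr5-high arrays. Replicates 3 and 4 stood above replicates 1 and 2, and the gap to the highest Lgr5-high array was 2.22. The difference of its means was 3.99, from 3.69 ± 0.19 (SD, n = 6) to 7.67 ± 1.41 (SD, n = 4).

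Ptprcap (Entrez gene 19265), a small membrane protein that binds CD45, showed far less of this. It read 5.77, 6.07, 6.93 and 6.32 in Flattop and 5.09 to 5.70 with a median of 5.602 in Lgr5-high arrays. The groups were apart by only 0.067, and the difference of 0.73 (6.27 ± 0.49 against 5.54 ± 0.23) was 0.42 among titles 1 to 8 and 1.04 among titles 38 to 46. In the RefSeq gene table Ptprcap lies next to Coro1b, a widely expressed coronin, without overlapping it. Among genes of CD45's partners and substrates, which are Src family kinases, Csk and adaptors, 7 of 10 listed were measured. None passed limma over all genes in either direction (0.902% of all genes were called higher and 0.0135% lower), and 3 were higher at an unadjusted p under 0.05. Over all genes 5.98% were higher and 3.80% lower at that level, against which the counts at an unadjusted p below are also read. The median difference of the 7 was 0.55. Fyn, the kinase of T cells and other cells, was at 1.43 (SE 0.40, limma adjusted p = 0.197), with 4.92, 5.32, 7.18 and 6.83 in Flattop replicates 1 to 4 against 4.42 to 4.91. The adaptor Skap1 was at 1.51 (limma adjusted p = 0.266), the kinase Zap70 at 1.31 (0.377) and Pstpip1 at 0.39 (0.612). Without Flattop replicate 3 Skap1 was at 0.89 and Pstpip1 at 0.22.

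Laptm5 (Entrez gene 16792) encodes a lysosomal membrane protein of blood cells that promotes degradation of antigen receptors. It read 6.28, 6.63, 8.93 and 8.19 in Flattop and 3.88 to 4.76 with a median of 4.20 in Lgr5-high arrays. The groups were apart by 1.52, and the means were 7.50 ± 1.26 (SD, n = 4) and 4.26 ± 0.29 (SD, n = 6), a difference of 3.25. One predicted gene overlaps Laptm5 in the RefSeq table, and no source used here says whether strand was kept, so its signal cannot be told apart from that of Laptm5. Coro1a (Entrez gene 12721), the coronin of blood cells that binds actin and supports T cell survival, read 5.43, 5.63, 7.01 and 6.30 in Flattop and 4.61 to 5.62 with a median of 5.05 in Lgr5-high arrays. Flattop replicate 1 lay inside the Lgr5-high range, and the difference was 1.03.

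Widely expressed relatives of the members were compared with them. Of 18 such genes, among them the coronins Coro1b and Coro1c, the lysosomal Laptm4a and Laptm4b, phosphatases and tetraspanins, none passed limma in either direction and 3 were higher at an unadjusted p under 0.05. Their median was 0.17 and their range -0.78 to 0.77. The tetraspanins Cd82, Cd151 and Cd81 were at 0.72 (limma adjusted p = 0.227), 0.63 (0.453) and -0.42 (0.535), and Ly6e, a GPI-anchored protein, at 0.77 (0.508).

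The small surface proteins differed among themselves. Cd52 (Entrez gene 23833), a very short glycoprotein held by a GPI anchor, read 5.74, 6.33, 8.56 and 6.51 in Flattop and 3.71 to 4.41 with a median of 4.23 in Lgr5-high arrays. Replicate 3 stood above the other Flattop arrays, all of which exceeded the Lgr5-high range by at least 1.34. The difference was 2.60. Cd53 (Entrez gene 12508), a tetraspanin of blood cells, was instead highest in Flattop replicate 1: it read 7.03, 5.70, 6.55 and 6.19, against 4.33 to 5.02 with a median of 4.68. The groups were apart by 0.68 and the difference was 1.67, from 4.69 ± 0.23 (SD, n = 6) to 6.37 ± 0.56 (SD, n = 4).

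Thy1 and Cd2, both surface molecules of T cells, did not separate the groups. Thy1 (Entrez gene 21838), a GPI-anchored protein also made by fibroblasts and neurons, read 4.68, 5.85, 8.22 and 5.61 in Flattop and 4.85 to 5.45 with a median of 5.08 in Lgr5-high arrays. Replicate 3 was far above the rest, and replicate 1 was below every Lgr5-high array. The difference of 0.98 rested on replicate 3 and was 0.27 without it. In the low title numbers (1 to 8) it stood at 0.17, in the high ones (38 to 46) at 1.79. Cd2 (Entrez gene 12481), an adhesion receptor that binds CD48 in the mouse, read 3.97, 4.18, 4.25 and 4.58 in Flattop and 4.19 to 4.51 with a median of 4.33 in Lgr5-high arrays. Its difference of -0.09 was 0.06 within titles 38 to 46 and 0.0035 without Flattop replicate 1, so it has no settled direction. Cd48, its ligand, read 4.98, 6.25, 8.13 and 6.47 in Flattop and 4.06 to 4.70 in Lgr5-high arrays (difference 2.05, limma adjusted p = 0.0866, named here after its values were seen).

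Il7r (Entrez gene 16197) encodes the alpha chain shared by the receptors for IL-7 and TSLP. It read 6.13, 4.72, 6.43 and 4.53 in Flattop and 3.71 to 4.11 with a median of 3.93 in Lgr5-high arrays. Replicates 1 and 3 were the high ones, and the lowest exceeded all Lgr5-high arrays by 0.42. The difference was 1.54 (5.45 ± 0.97 against 3.91 ± 0.17). Of 15 listed genes of IL-7 and the common gamma chain cytokines, 13 were measured, none passed limma in either direction and 5 were higher at an unadjusted p under 0.05, with a median of 0.20. Il2rb, the beta chain for IL-2 and IL-15, was at 3.09 (SE 0.67, limma adjusted p = 0.0729). It read 6.00, 5.77, 9.73 and 8.29 in Flattop against 3.96 to 4.72, and passed with dim genes left out (0.0448), with the title range as a block (0.0381), within titles 38 to 46 (0.0346) and without Flattop replicates 1 or 2 (0.0407 and 0.0428). The survival factor Bcl2 was at 1.61 (limma adjusted p = 0.256), the kinase Jak1 at 0.68 (0.272) and the feedback inhibitor Cish at 1.51 (0.475). Il7 itself was at -0.16 (0.767) and Tslp at -0.01 (0.99), both named after their values were seen. Without Flattop replicate 3 Cish was at 0.90, Il7 at -0.30 and Tslp at -0.10.

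**Figure D2:**
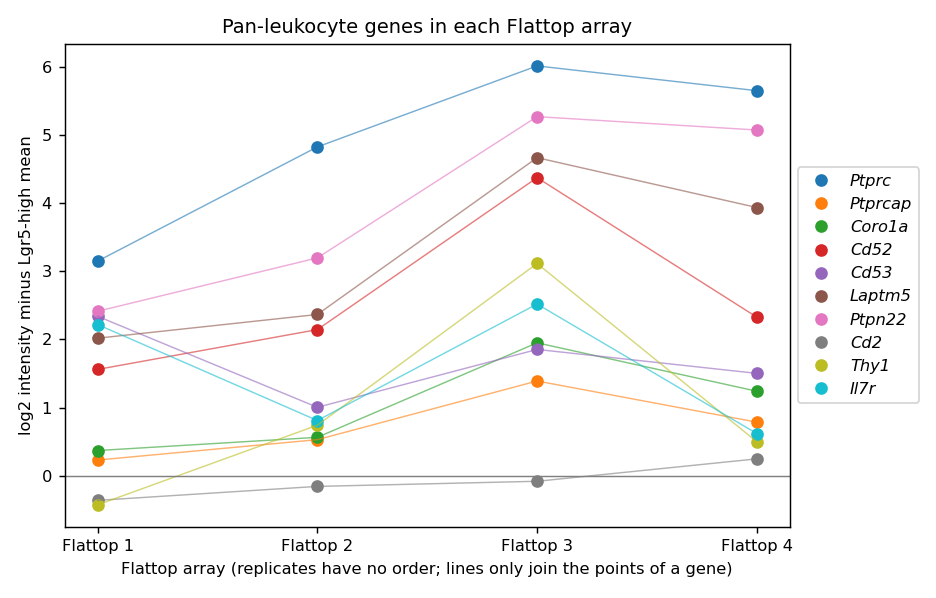
Log2 intensity of each gene in each Flattop array minus its mean over the 6 Lgr5-high arrays (vertical axis), with 1 colour per gene and the 4 Flattop arrays side by side, joined only to guide the eye. In replicate 3 the values of 8 genes are at their highest, Cd53 is highest in replicate 1, and Cd2 stays within 0.36 of the Lgr5-high mean.

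The genes did not vary together across the Flattop arrays in 1 way. Ptprc, Ptprcap, Coro1a, Cd52, Laptm5 and Ptpn22 shared 1 order, lowest in replicate 1, then 2, then 4, and highest in replicate 3. That order was found in 6 of 10 members (60%), in 12 of 36 other pan-leukocyte genes (33.3%), in 4 of 6 T cell genes (66.7%) and in 8.47% of all genes. Ptprc defines the order and is counted among the 6, and without it the members' count was 5 of 9 (55.6%). Cd53, Cd2, Thy1 and Il7r each had another order. Over the 10 genes the median excess above the Lgr5-high mean was 1.79, 0.91, 2.82 and 1.37 in Flattop replicates 1 to 4. In these arrays 7, 9, 9 and 10 of the genes lay above the highest Lgr5-high array. For Cd2 in replicate 4 this was 4.58 against 4.51. The share over all genes is not given here, and since this contrast chose the members nothing is read from these counts. Within the Lgr5-high group the 10 genes spanned 0.33 (Cd2) to 1.005 (Coro1a) from the lowest to the highest array, and within Flattop 0.61 (Cd2) to 3.54 (Thy1).

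The title numbers fall into a low range (1 to 8) and a high range (38 to 46), each with arrays of both groups; the labels do not say whether they mark batches. This comparison was not used to choose the genes, but it is not independent of that choice. Genes picked for being higher in Flattop have more room to differ among Flattop arrays than among Lgr5-high arrays. The same holds for the interaction below. In a model with group, range and their interaction, Ptpn22 was higher in the high-numbered Flattop arrays by 2.37 (SE 0.28, limma adjusted p = 0.0397), in 2 of 2 arrays against 2. Over all genes 15 passed (0.0676%). Outside the members these were Fasl, Stat4, Gimap7, Cd96, Olfr935, Smn1, Prim1, Cd3g, Abi3, Trav9d-3, Klrh1, Retnlb, Scnn1a and Fyn. The T cell gene Cd3g read 9.235, 9.179, 11.016 and 10.98 in Flattop replicates 1 to 4, so the difference was not particular to the members. Ptpn22 was the 1 member that passed. Leaving out any single array except Flattop replicate 2 or 4 ended this call, with adjusted p from 0.0698 to 0.122. Laptm5 was higher by 2.11 (SE 0.33, limma adjusted p = 0.0904), Ptprc by 1.84 (SE 0.46, 0.214), Thy1 by 1.65 (0.436), Cd52 by 1.498 (0.375) and Coro1a by 1.13 (0.244), none of which passed. Cd53 and Il7r were at 0.0060 and 0.055. In all 10 genes the estimate was above 0, with a median of 1.31 against 0.07 over all genes. All 10 share the same Flattop arrays, so these signs are not 10 separate results.

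**Figure D3:**
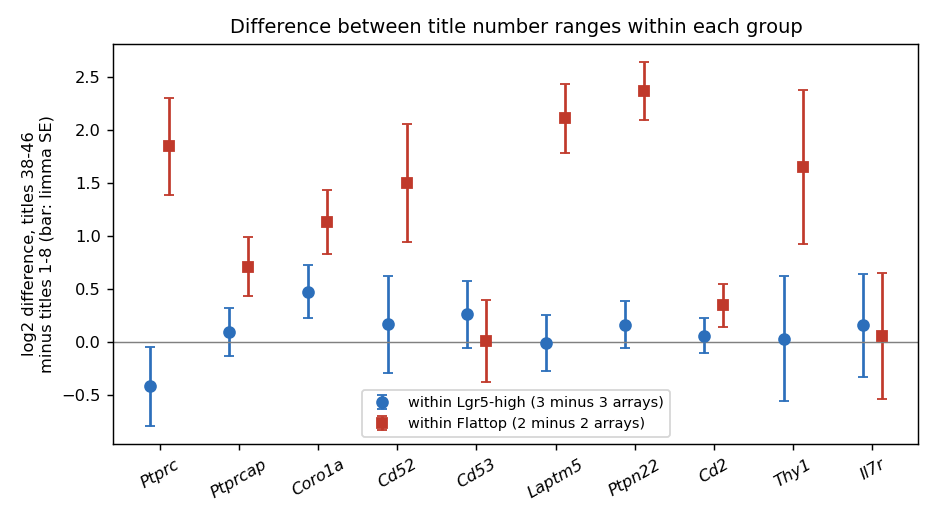
Difference in log2 intensity between arrays with title numbers 38 to 46 and 1 to 8 (vertical axis) for the 10 genes, within Lgr5-high (blue circles, 3 minus 3 arrays) and within Flattop (red squares, 2 minus 2 arrays), with limma standard errors as bars. Ptpn22, Laptm5 and Ptprc show 2.37, 2.11 and 1.84 within Flattop and 0.16, -0.01 and -0.42 within Lgr5-high.

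Within Lgr5-high arrays no member passed between title ranges, and neither did any gene (0%; limma, 1074 genes and 0 members at an unadjusted p under 0.05). The estimates ran from -0.42 for Ptprc to 0.47 for Coro1a. For the interaction, which asks whether the range difference differs between groups, 2 genes passed over all genes (0.00902%), Fasl and Stat4, and no member. At an unadjusted limma p under 0.05 there were 3 members and 7.39% of all genes. The 3 were Ptprc at 2.27 (limma adjusted p = 0.464), Laptm5 at 2.12 (0.316) and Ptpn22 at 2.21 (0.212). Taken in each range alone, the group difference of Ptprc was 3.78 at low and 6.04 at high title numbers, that of Ptpn22 2.89 and 5.09, and that of Laptm5 2.19 and 4.31. That of Cd53 was 1.80 and 1.55, and that of Il7r 1.59 and 1.49.

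Other genes of leukocytes in general were also higher in Flattop arrays. Of 40 listed genes, 36 were measured, 6 rose in limma over all genes and none fell; at an unadjusted p under 0.05, 25 were higher and none lower. The median was 1.02, and 35 of 36 differences were above 0. Rac2, the small GTPase of blood cells, rose by 2.76 (SE 0.33, limma adjusted p = 0.00219), with 8.25, 7.78, 9.64 and 8.06 in Flattop against 5.13 to 5.99 in Lgr5-high arrays. Itgb2, the beta chain of leukocyte integrins, rose by 1.75 (adjusted p = 0.00206), the myosin Myo1f by 1.11 (0.00401) and the transcription factor Ikzf1 by 1.16 (0.032). Without Flattop replicate 1 the count was 12, and it was 3 without Lgr5-high replicates 2, 4, 5 or 6, each alone. Within titles 1 to 8 it was 1, with a median of 0.60, and within titles 38 to 46 it was 6, with a median of 1.55. Ikzf1 missed the threshold in either title range and without any single Lgr5-high array or Flattop replicate 2, Itgb2 within titles 1 to 8, Rac2 within titles 38 to 46 and Myo1f in both.

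Markers of particular leukocytes were read beside these values. Of 6 measured T cell genes 4 rose, Cd3g by 6.43, Cd3e by 5.30, Cd3d by 4.28 and Cd8a by 3.89 (limma adjusted p of 2.22e-05, 0.000448, 0.00423 and 0.000113), and none fell. The mean of this list was 7.29, 7.71, 10.01 and 8.86 in Flattop replicates 1 to 4 and 4.55 to 4.89 in Lgr5-high arrays. It was thus highest in replicate 3, like Ptprc. Natural intraepithelial T cells are known to carry CD8 alpha without the beta chain. Cd8b1, named after its values were seen, read 4.31, 4.58, 9.03 and 4.604 in Flattop and 4.06 to 4.71 in Lgr5-high arrays. Its difference was 1.28 (limma adjusted p = 0.633), and 0.15 without Flattop replicate 3. Which kind of T cell, if any, was among the sorted cells was not tested. The part of T cells in the values of the 10 genes was not tested.

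Of 12 genes of peripheral T cell costimulation and adhesion, 11 were measured and 1 rose, the adhesion receptor Cd226 (1.82, SE 0.35, limma adjusted p = 0.0395), with 4.37, 6.35, 6.46 and 5.31 in Flattop against 3.70 to 3.92. It passed in 5 of 18 alternatives and was lost without any single array other than Flattop replicate 1. Cd244a, a receptor for CD48, was at 2.62 (limma adjusted p = 0.0752), Cd27 at 0.65 (0.492) and the homing receptor Ccr7 at -0.62 (0.265). Cd4, Cd5 and Cd28, named after their values were seen, were at -0.13, -0.02 and -0.25 (limma adjusted p of 0.818, 0.982 and 0.578), beside Cd2 at -0.09. All of these read between 3.93 and 5.36 in the 10 arrays, around the median of all values (4.70). No array shows that their probe sets respond, so absent RNA and an unresponsive probe set cannot be told apart. Without Flattop replicate 3 Cd27 was at 0.31 and Cd5 at -0.18. The list's median was -0.02, with 3 genes higher and 1 lower before adjustment at 0.05.

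Markers of other leukocytes did not pass, apart from Kit. In limma none passed in either direction of 7 measured B cell genes (median -0.10; 1 higher at an unadjusted p under 0.05), 5 plasma cell genes (median -0.06; none), 12 macrophage and dendritic cell genes (median -0.02; 1 higher and 3 lower) or 7 neutrophil genes (median -0.20; none). The B cell list mean was 3.98 to 4.30 in Flattop and 4.08 to 4.29 in Lgr5-high arrays, and the macrophage and dendritic mean 4.49 to 4.79 and 4.37 to 4.74. The lysozyme gene Lyz2, which macrophages make, was at 1.04 (limma adjusted p = 0.236). From the same list Cx3cr1, Aif1 and Adgre1 were at -0.55 (0.348), -0.36 (0.478) and -0.32 (0.485). The B cell receptor chain Cd79b was at 0.65 (0.252), the 1 positive difference among the 7 B cell genes. Cd79a, Blk and Ms4a1 were at -0.31 (0.601), -0.20 (0.714) and -0.10 (0.776). Of 8 mast cell genes, 1 rose, the receptor Kit by 1.002 (SE 0.17, limma adjusted p = 0.0216), which is not restricted to mast cells, while Cpa3 was at 0.34 (0.569) and Fcer1a at 0.30 (0.586). Kit lost its call in either title range and without Flattop replicates 2, 3 or 4, each alone.

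Endothelial genes (7, median -0.21) and fibroblast and muscle genes (9, median -0.11) had none past limma's threshold in either direction. At an unadjusted p under 0.05 the endothelial list had none higher and 1 lower, and the fibroblast and muscle list none. The 1 measured erythroid gene, Slc4a1, was at 0.05 (limma adjusted p = 0.914). Of 10 epithelial genes 1 rose, the keratin Krt20 of differentiated cells (4.48, SE 0.54, limma adjusted p = 0.00247; 0.292 within titles 38 to 46), and Vil1 was at 0.62 (0.0782), Elf3 at 0.94 (0.503) and Krt8 at 0.55 (0.51). Of 14 transcription factors known in leukocytes 13 were measured and none passed in either direction, with 5 higher and 1 lower before adjustment at 0.05, and a median of 0.27. Ikzf3 was at 2.28 (limma adjusted p = 0.093), the ETS factors Ets1, Fli1 and Elf1 at 1.43 (0.332), 0.97 (0.201) and 0.69 (0.466), and Spi1, which encodes PU.1 and is high in myeloid and B cells, at -0.31 (0.551, named after its values were seen). Without Flattop replicate 3 Ets1 was at 0.82.

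**Figure D4:**
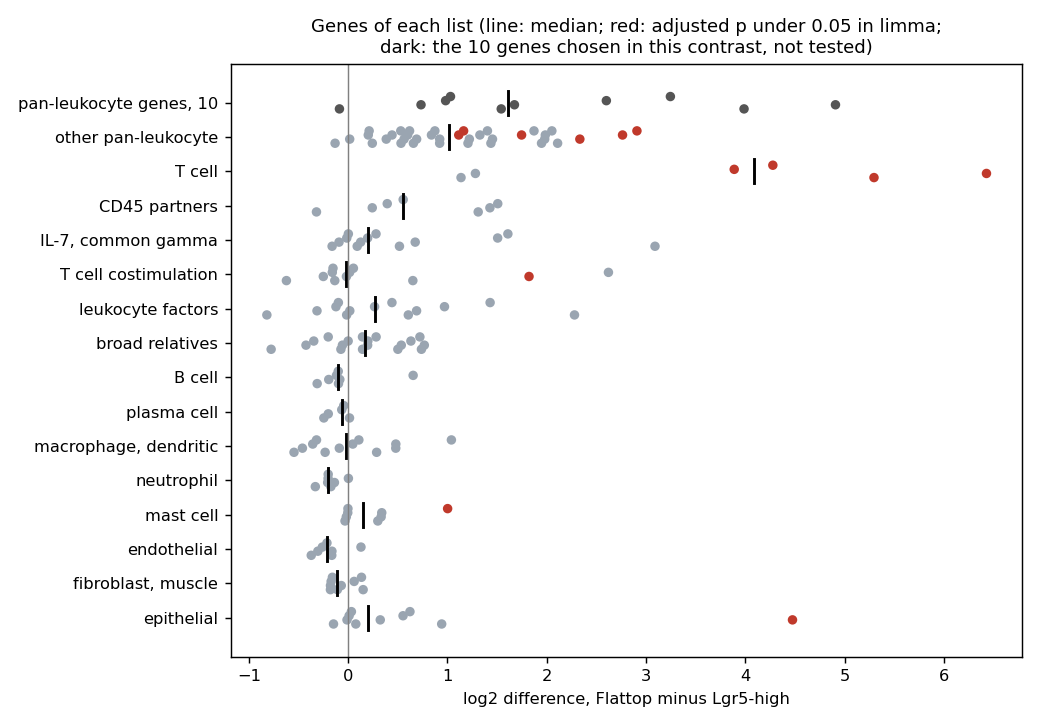
Difference in log2 intensity, Flattop minus Lgr5-high (horizontal axis), of every measured gene in each list (1 row per list, points are genes, black line the median), with red points past an adjusted p of 0.05 in limma and the 10 chosen genes in dark grey because they carry no test. T cell and other pan-leukocyte genes reach 6.43 and 2.91, and B cell, plasma cell and neutrophil genes do not exceed 0.65.

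Over all 10 arrays the profile most like that of Ptprc was that of Cd3e, a chain of the T cell receptor complex, followed by Gzmb, a granule protease of cytotoxic lymphocytes. Likeness was the root mean square difference between a gene and Ptprc after each gene's mean over the 10 arrays was subtracted, so it weighs size as well as pattern. Predicted genes and immunoglobulin or T cell receptor segments were left out of the naming, which passed over 1 receptor or immunoglobulin segment nearer than the last gene named. The 8 nearest of the other genes that were not members were Cd3e (0.401), Gzmb (0.406), Xcl1 (0.440), Itgae (0.486), Rgs1 (0.526), Cd3d (0.535), Cd7 (0.551) and Gimap4 (0.692), and the median over all genes was 2.55. Among the members, Ptpn22 was 9th nearest of 22179 genes (0.585) and Laptm5 23rd (0.929), followed by Cd52 at rank 48, Cd53 at 234, Il7r at 314, Coro1a at 377, Thy1 at 396, Ptprcap at 622 and Cd2 at 9065. All of these points share the same 10 arrays, and the measure includes the difference between the groups.

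The genes are scattered over the genome. In the RefSeq table (GRCm38.p6) Cd2, Ptpn22 and Cd53 lie on chromosome 3, with 25 protein-coding genes between the first pair and 34 between the second, and Laptm5 and Cd52 on chromosome 4 with 55 between them. No member was the immediate neighbour of another.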

How the data were processed

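Amplified RNA from sorted cells was hybridised to mouse gene arrays, 1 array per sample. The authors deposited log2 intensities per probe set, and per the submitters' processing notes they were made by RMA in oligo 1.38.0. No source used here gives a later filter, the genome build or signal over background, and precision is limited by the 10 arrays. Of 41345 probe sets, 23521 had 1 symbol, 1814 several and 16010 none listed. For each of 22180 genes the probe set with the highest mean over the 10 arrays was kept.

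Differences between groups were fitted in R 4.3.3 by limma 3.58.1 (lmFit, eBayes; two-sided), p-values were adjusted by Benjamini-Hochberg across the 22180 genes, and 0.05 was the threshold. Nothing was tested for the 10 genes in that contrast. The code was tested on simulated data. The genes, the lists and the tests were chosen with earlier results of these data known. Named genes were the 10, up to 4 per list by smallest p, and the 8 most like Ptprc, leaving out predicted genes and immunoglobulin or T cell receptor segments. Listed genes that matched no probe set with 1 symbol were not analysed here. The alternatives were a second quantile normalisation, median centring, removal of genes under the 40th percentile, the mean of probe sets, a trended and robust prior, blocks for replicate number and title range, each range alone and each array left out. Plots used matplotlib 3.10.9.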

Additional observations from a re-analysis of the deposited data

Results flagged for a closer look

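Of 154 groups of values examined for named genes (4 or 6 arrays each), 8 had an array far from the others, and chance alone flags about 1 in 20. Among the 10 pan-leukocyte genes, Lgr5-high replicate 1 was low for Ptprcap (5.09, others 5.54 to 5.70) and for Cd52 (3.71, others 4.18 to 4.41). Lgr5-high replicate 1 was also low for Vwf (4.34, others 4.55 to 4.64). Lgr5-high replicate 2 was low for Ly6e (7.87, others 9.32 to 9.995) and high for Cdh5 (5.33, others 4.48 to 4.76). Flattop replicate 2 was low for Cdh5 (3.99, others 4.56 to 4.63). Krt8 was low in Flattop replicate 3 (10.27, others 11.04 to 11.13) and in Lgr5-high replicate 6 (9.50, others 10.39 to 10.66). Thy1 in Flattop replicate 3 was not among them. Genes named after their values were seen were not screened. Among these was Cd8b1, at 9.03 in Flattop replicate 3 and 4.31 to 4.604 in the other Flattop arrays.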

How the results depend on the processing

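The 9 positive differences among the members kept their sign in every alternative that held the gene; Cd2 turned to 0.06 within titles 38 to 46 and 0.0035 without Flattop replicate 1, and the median over the 10 lay between 1.42 and 1.84 (2.14 over the 8 left after dim genes were removed). Their groups were apart in 6 to 9 genes, 6 with dim genes left out, which removed Cd2 and Il7r. Groups lie apart more easily where fewer arrays are compared, as in each title range alone or with an array left out. The share over all genes in each alternative is not given here. Since this contrast chose the members, nothing is read from these counts. The 8 genes named as nearest Ptprc, chosen without predicted genes and receptor segments, were the same 8 after both other scalings. The cause of the changes below was not tested.

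Whether equal replicate numbers mark a pair of arrays is not known here. Same-numbered arrays' deviations from their group means correlated at 0.297, -0.206, -0.0101 and 0.0292, and 1 of 4 correlated best with its own number. So few numbers cannot exclude a pairing. With the replicate block 57 genes were higher and 0 lower in limma, with 0 other pan-leukocyte genes (19 at an unadjusted p under 0.05), 0 costimulation and 0 mast cell genes, and 3 of the 4 T cell calls. Lower genes numbered 7 after a second quantile normalisation and 6 with the title range block. The IL-7 list had 1 call with dim genes left out and 1 with the title range block, and the mast cell list 0 with a trended prior, which gave 4 interaction genes. Within titles 1 to 8, 77 genes were higher and 0 lower, with 1 other pan-leukocyte, 0 costimulation and 0 mast cell calls. Within titles 38 to 46, 75 were higher and 10 lower, with 1 call each in the CD45 partner, IL-7 and leukocyte factor lists, 0 in the mast cell and epithelial lists, and a median of 1.55 for other pan-leukocyte genes.

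With each array left out in turn, higher genes numbered 118 to 211 and lower genes 1 to 5, and calls were 3 to 12 for other pan-leukocyte, 0 to 1 for CD45 partner, 0 to 2 for IL-7, 0 to 2 for costimulation, 0 to 1 for leukocyte factor and 0 to 1 for mast cell genes. Title range genes numbered 3 to 171 within Flattop (171 without Flattop replicate 4), 0 to 1 within Lgr5-high and 0 to 38 for the interaction. A fit with 1 array in a cell assumes that it varies like the others.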

Other observations

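Nckap1l, a subunit of the actin regulator WAVE in blood cells, and Dock2, its upstream exchange factor for Rac, were chosen after their values were seen because replicate 1 differs from the other Flattop arrays. Nckap1l read 4.02, 6.51, 7.44 and 6.49 in Flattop replicates 1 to 4 and 3.95 to 4.48 in Lgr5-high arrays (1.98, limma adjusted p = 0.151). Dock2 read 4.08, 5.34, 7.54 and 6.33 against 3.74 to 4.125 (1.87, limma adjusted p = 0.184). In replicate 1 both were within the Lgr5-high range, where Ptprc read 7.30, Cd53 7.03 and Il7r 6.13.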
